A study of Sus scrofa with 12 samples.

Results

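Glycolysis transcripts were described in the ovaries of 12 pregnant sows: the glucose transporter SLC2A1, the enzymes HK1, PFKP, ALDOA, TPI1, PGK1 and ENO1 along the pathway, and the lactate dehydrogenase subunits LDHA and LDHB. Members were taken as all probe sets whose only gene symbol in the array annotation was one of these 9 names. That gave 8 probe sets for 8 genes, 1 for each, among 24123 probe sets on the array. ALDOA is not analysed here, as its symbol was matched by 0 probe sets. The comparison set 6 sows of higher EBV (estimated breeding value, called high prolificacy) against 6 of lower EBV (called low prolificacy), and asked which ovarian transcripts differ between them. All sows were F2 animals of an Iberian x Meishan cross, killed at day 30 of pregnancy, and the labels name no treatment or transgene. Each sow gave 1 Affymetrix porcine array, described as an average of her right and left ovary, so the values join corpora lutea, follicles, vessels and stroma. Fewer cells of a type and less RNA per cell therefore cannot be told apart.

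Glycolysis splits glucose into pyruvate in the cytosol and yields ATP and NADH on the way. Glucose enters cells through facilitative transporters, hexokinase traps it, phosphofructokinase commits it to the pathway, and lactate dehydrogenase interconverts pyruvate and lactate. In the ovary the pathway is known for the pyruvate and lactate that follicle cells supply to the oocyte, which itself uses glucose poorly, and for fuelling luteal cells, which secrete progesterone through pregnancy.

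The deposited values are log2 expression from GCRMA, which corrects background and puts arrays on 1 scale, so that a difference of 1 is a 2-fold change. A value of 4 was used as the level above which a probe set counts as measured, and 13390 probe sets above it in at least 6 sows were tested. All 8 members were among them in every sow. Array medians lay between 4.81 and 4.97. Luteal tissue was present in every ovary: 6 of 6 luteal markers, among them STAR and HSD3B1, were measured, and their mean level ran from 13.12 to 13.80 in high and from 13.36 to 13.62 in low prolificacy sows. Of 5 lymphocyte markers on the array, 0 were measured. The 3' minus 5' difference of the ACTB and GAPDH control probe sets, a measure that grows as RNA is degraded or copied short, was larger in the high group, at 2.304 ± 0.320 against 1.945 ± 0.081 in the low group (SD, n = 6 each). An exact permutation test, two-sided, gave p = 0.0108 for it (adjusted p = 0.0292 over 3 such measures). High 2 and high 4 had the largest values, 2.78 and 2.57, and high 3 lay inside the low group's range. High 1, high 5 and high 6, at 2.17, 2.18 and 2.22, also lay above every low sow, the highest of which was 2.03.

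No member differed past the threshold between the groups. With limma and Benjamini-Hochberg adjustment over all probe sets, 0 of 8 members passed an adjusted p of 0.05, as did 0 of all 13390 (0%), and the members' adjusted p ran from 0.874 to 0.995. At an unadjusted p under 0.05 there were 0 members, beside 755 of all probe sets (5.64%), and by exact permutation there were also 0 members, beside 790 (5.9%). The groups overlapped in all 8 members, where they did not in 63 of all probe sets (0.471%). Of the members 6 were lower and 2 higher in high prolificacy sows, where 52.4% of all tested probe sets were lower. The members' median difference was -0.117, beside -0.010 over all probe sets. The narrowest 95% interval was that of TPI1, -0.43 to 0.12, and the widest that of HK1, -0.84 to 0.93.

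**Figure D1:**
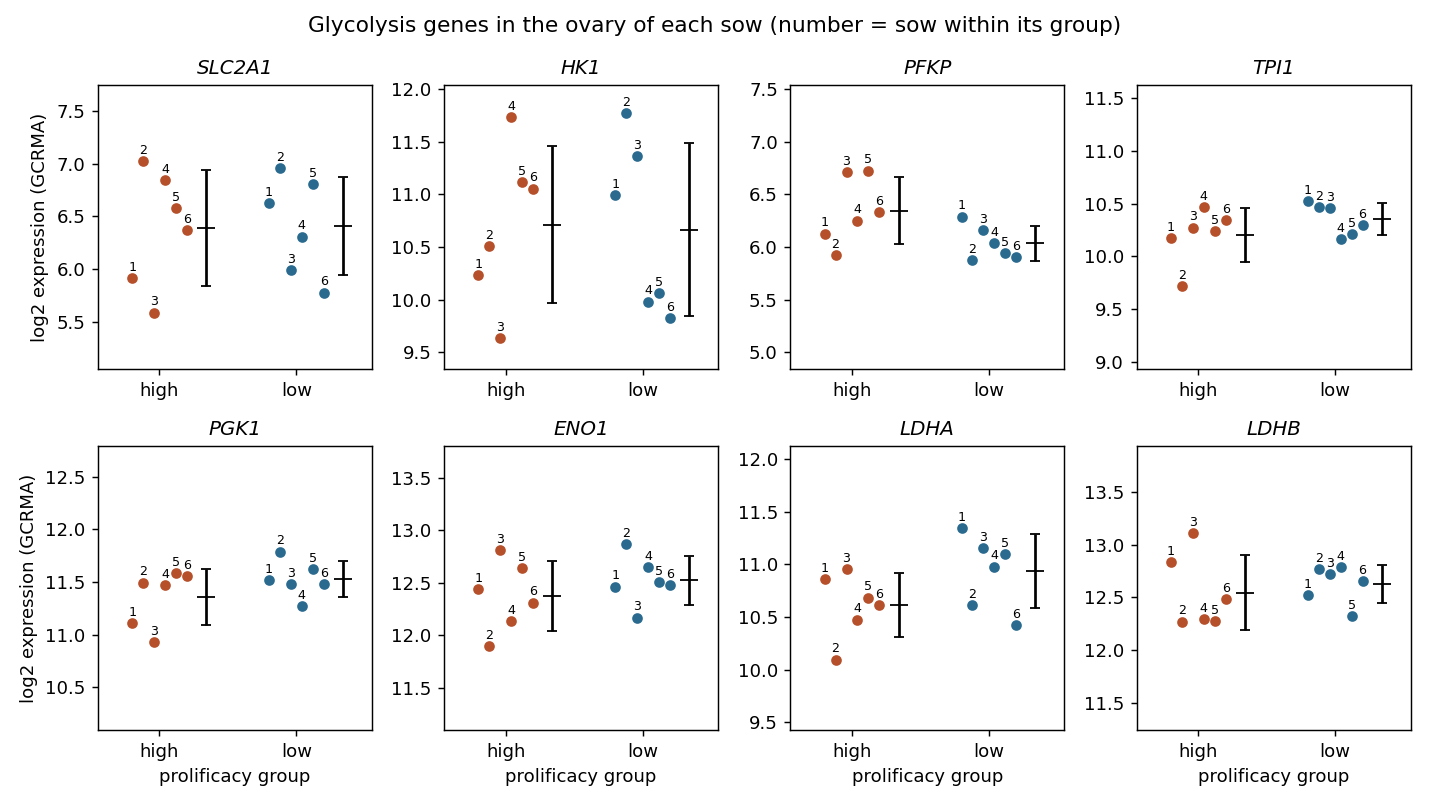
Log2 expression (GCRMA) of the 8 measured glycolysis genes by prolificacy group, each point 1 sow with its number, and bars for the mean ± SD of 6 sows. All panels span the same number of log2 units, so the wide scatter of HK1 and SLC2A1 within each group and the overlap of the groups in every gene can be read directly.

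Entry of glucose was read by SLC2A1, also called GLUT1, the transporter of basal glucose uptake. The array annotation gives its probe set Entrez gene 397404, where RefSeq's pig gene table has SLC2A1 as 102164419. Whether the probe set reads that locus was not tested. SLC2A1 ran from 5.58 through a median of 6.47 to 7.02 in high prolificacy sows, and from 5.78 through 6.46 to 6.96 in low prolificacy sows. Both groups covered nearly the same range, with high 2 at the top and high 3 at the bottom of all 12. The difference was -0.024 (95% interval -0.61 to 0.56, limma adjusted p = 0.995), and its sign turned when any of 5 sows was left out. HK1 (Entrez gene 100152344), the hexokinase found in most tissues, ran from 9.64 through 10.78 to 11.74 in high and from 9.82 through 10.53 to 11.77 in low prolificacy sows. It varied most of the members, 4.38-fold between high 3 and low 2, and 5.62% of tested probe sets had a larger SD within groups. Low 4, low 5 and low 6 stood at 9.98, 10.06 and 9.82, and the other low sows at 10.99 or above. The HK1 difference was 0.047 (95% interval -0.84 to 0.93, limma adjusted p = 0.993), with group SDs of 0.74 in high and 0.82 in low prolificacy sows.

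PFKP (Entrez gene 100521394), the platelet isoform of phosphofructokinase, had the smallest unadjusted p of the members. It ran from 5.92 through 6.29 to 6.73 in high prolificacy sows, against 5.88 through 5.99 to 6.29 in low prolificacy sows. High 3 and high 5, at 6.71 and 6.73, lay well above the highest low sow, while high 1, high 2 and high 4 lay inside the low group's range. The difference was 0.31 (1.24-fold, 95% interval -0.0063 to 0.63), with 5 of 6 high sows above the low group's mean (exact permutation p = 0.0649, limma adjusted p = 0.874). Leaving out 1 sow gave 0.234 to 0.395, and adding the 3' difference to the fit gave 0.587 (limma adjusted p = 0.366).

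TPI1, PGK1 and ENO1, of the middle and lower pathway, had lower averages in high prolificacy sows, with no call, and with the 3' difference in the fit TPI1 and ENO1 took the other sign, at 0.012 and 0.174. TPI1 (Entrez gene 100157582), which interconverts the triose phosphates, ran from 9.72 through 10.26 to 10.47 in high and from 10.16 through 10.38 to 10.52 in low prolificacy sows. Its difference of -0.15 rested largely on high 2, the lowest of all sows, and was -0.054 without that sow. PGK1 (Entrez gene 407608), which catalyses the first ATP-forming step, ran from 10.93 through 11.48 to 11.58 in high and from 11.27 through 11.50 to 11.79 in low prolificacy sows. High 1 and high 3 lay under every low sow and the other 4 high sows lay among them. The PGK1 difference of -0.17 was -0.083 without high 3. ENO1 (Entrez gene 100738870), the enolase found in most tissues, ran from 11.90 through 12.38 to 12.81 in high and from 12.17 through 12.50 to 12.87 in low prolificacy sows. Its difference was -0.15, -0.054 without high 2, -0.080 without low 2 and -0.237 without high 3. The limma adjusted p was 0.929 for TPI1 and PGK1 and 0.947 for ENO1.

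LDHA (Entrez gene 407245), the muscle-type subunit of lactate dehydrogenase, differed most of the members. It ran from 10.10 through 10.65 to 10.95 in high prolificacy sows, against 10.42 through 11.04 to 11.35 in low prolificacy sows. Of the low sows 4 lay above every high sow, and low 2 and low 6 lay among the high ones. The difference was -0.32 (1.25-fold, 95% interval -0.72 to 0.071), with 5 of 6 high sows under the low group's mean (exact permutation p = 0.123, limma adjusted p = 0.896). It was -0.219 without high 2, -0.24 without low 1, and 0.0093 once the 3' difference entered the fit. LDHA was lower in sows with a larger 3' difference, with r = -0.746 (permutation p = 0.00408, adjusted p = 0.049) and rho = -0.643 (adjusted p = 0.168). Within groups this r was -0.955 among high sows and -0.255 among low sows, and without high 2 and low 1 it was -0.561. The call was lost with the group means removed (r = -0.655, adjusted p = 0.0916 by permutation) and without high 3 (r = -0.739, adjusted p = 0.138 by permutation).

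LDHB (Entrez gene 100621540), the heart-type subunit, ran from 12.27 through 12.39 to 13.11 in high and from 12.32 through 12.69 to 12.79 in low prolificacy sows. High 1 and high 3 lay above every low sow, and high 2, high 4 and high 5 below every low sow. The difference was -0.084 (95% interval -0.43 to 0.26, limma adjusted p = 0.985), from -0.197 without high 3 to -0.029 without high 2, with an SD of 0.35 among high sows and 0.18 among low sows. RefSeq's pig gene table for Sscrofa11.1 lists 2 loci with the symbol LDHB, and the array annotation points to the shorter of them. Which of them the probe set reads was not tested, so its value may join signal of both. The LDHA value minus the LDHB value of the same sow was taken as a difference between probe sets, whichever LDHB locus is read. Its mean was -1.93 ± 0.22 for the high group, against -1.70 ± 0.45 for the low group. The gap of -0.24 is in size slightly larger than the high group's SD and smaller than the low group's SD.

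**Figure D2:**
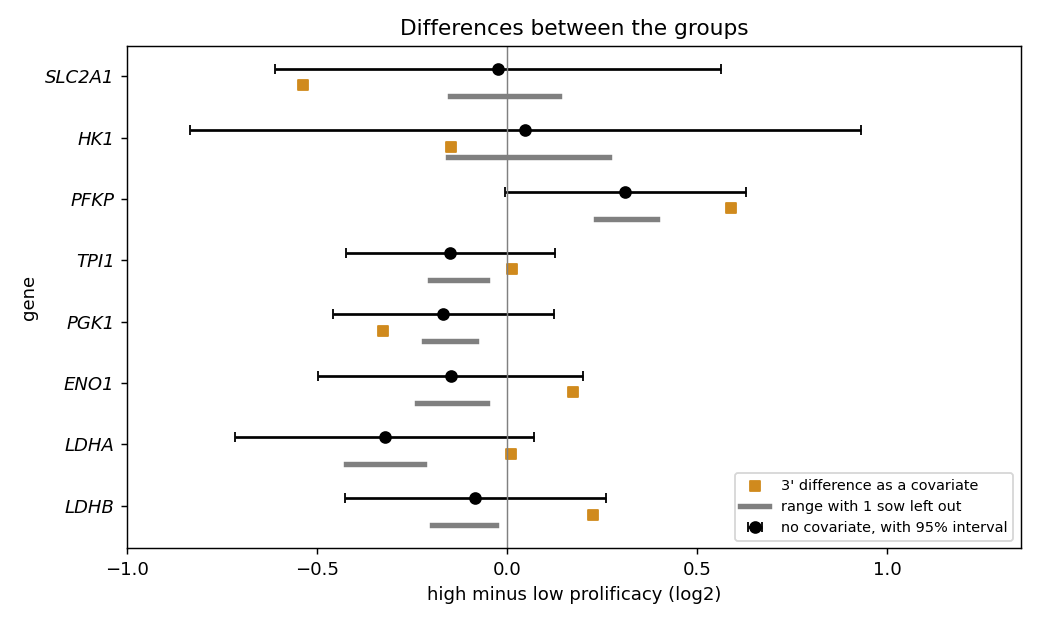
High minus low prolificacy difference (log2) of the 8 genes, as a black point with its 95% interval, with an orange square for the difference fitted beside the 3' difference of the control transcripts and a grey bar for the range when 1 sow is left out. Every interval contains 0, and the square lies on the other side of 0 from the point for HK1, TPI1, ENO1, LDHA and LDHB.

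LDHA was the only member whose correlation passed an adjusted p of 0.05 by permutation with the 3' difference. Fitted beside it, the differences were -0.538 for SLC2A1, -0.148 for HK1, 0.012 for TPI1, -0.326 for PGK1, 0.174 for ENO1 and 0.224 for LDHB, and 0 members passed. The 3' difference itself differed between the groups, and in this fit the differences of SLC2A1, PFKP and PGK1 were wider than without it, while those of HK1, TPI1, ENO1, LDHA and LDHB changed sign. The correlation of ENO1 with it was -0.716 over the 12 sows (permutation p = 0.00813, adjusted p = 0.0609; rho = -0.566, adjusted p = 0.243). It was -0.956 among high sows and 0.189 among low sows, and -0.432 without high 2 and low 2.

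Between sows the members did not vary as 1 group. Of 28 pairs of members 16 correlated positively and 12 negatively, with a median r of 0.154, and 0 pairs passed an adjusted p of 0.05 by permutation for r or rho (4 pairs at an unadjusted p under 0.05 for r). The leading positive pair was SLC2A1 and PGK1, at r = 0.721 (permutation p = 0.00643, adjusted p = 0.11; rho = 0.629, adjusted p = 0.409). It was 0.856 among high sows and 0.628 among low sows, 0.68 without high 3 and low 6, and 0.583 without high 3 alone. HK1 and PGK1 gave 0.63 (adjusted p = 0.174 by permutation; rho = 0.469, adjusted p = 0.514), 0.499 without high 3 and 0.324 without high 3 and low 2. LDHB ran against SLC2A1, at -0.734 (adjusted p = 0.11 by permutation, with rho = -0.678, adjusted p = 0.409). It also ran against PGK1, at -0.644 (adjusted p = 0.174 by permutation, with rho = -0.538, adjusted p = 0.409). Without high 3 these were -0.614 and -0.39. Without high 3 and low 6 the value with SLC2A1 was -0.626, and without high 3 and high 1 that with PGK1 was -0.126. Among high sows they were -0.961 and -0.95, and among low sows -0.329 and -0.244. With HK1, LDHB gave only -0.383 (adjusted p = 0.573 by permutation), at -0.825 among high sows, 0.324 among low sows and -0.158 without high 3. High 3 held the lowest SLC2A1, HK1 and PGK1 and the highest LDHB of all 12 sows, and high 2 held the lowest TPI1, ENO1, LDHA and LDHB and the highest SLC2A1.

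**Figure D3:**
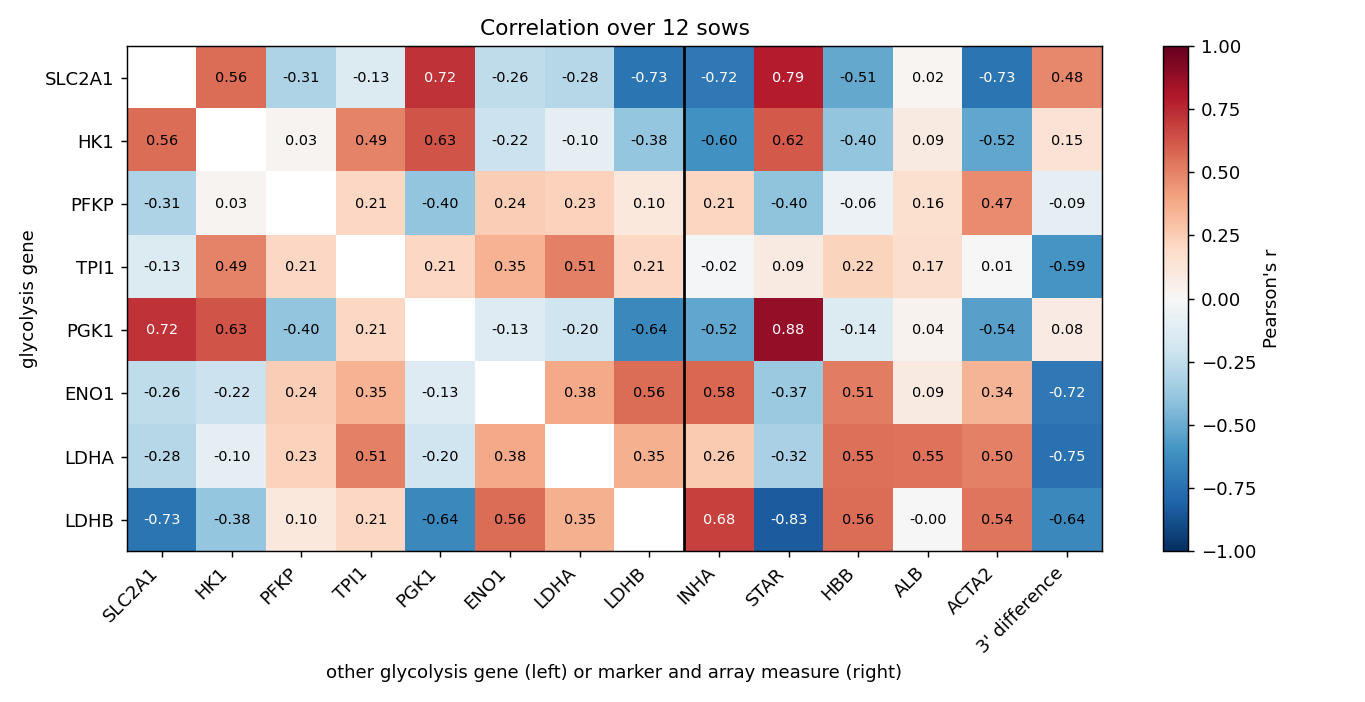
Pearson's r over 12 sows between the 8 glycolysis genes (left of the line) and of each gene with 5 marker genes and the 3' difference of the control transcripts (right of the line), with blank cells on the diagonal. SLC2A1, HK1 and PGK1 share positive values with each other and with STAR, and LDHB is negative with all 3 of them, least with HK1 (-0.38).

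The members were set beside 5 marker genes and the 3' difference in 48 correlations, of which 4 passed an adjusted p of 0.05 for r and 0 for rho. Of these 4, 3 were with STAR, the luteal cholesterol carrier, which spanned 14.04 (high 3) to 14.80 (high 4), near the top of the scale. PGK1 was higher in sows with more STAR signal, at r = 0.879 (permutation p = 0.00022, adjusted p = 0.00976; rho = 0.727, adjusted p = 0.14). That r was 0.935 among high sows and 0.879 among low sows, 0.617 without high 3 and high 1, and 0.761 without high 3. SLC2A1 gave 0.789 (adjusted p = 0.00976 by permutation; rho = 0.783, adjusted p = 0.107), 0.797 without high 3 and low 6, and 0.745 without high 3. LDHB gave -0.834 (adjusted p = 0.00976 by permutation; rho = -0.713, adjusted p = 0.14), -0.776 without high 3 and high 2, and -0.741 without high 3. Left without high 3, 0 of the 48 passed (the adjusted p of these 3 was then 0.138). With the group means removed, PGK1 and SLC2A1 still passed with STAR and LDHB did not (adjusted p = 0.0661 by permutation).

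INHA, the inhibin subunit of growing follicles, took the opposite signs, at -0.716 with SLC2A1 (adjusted p = 0.0609 by permutation; rho = -0.776, adjusted p = 0.107) and 0.684 with LDHB (adjusted p = 0.0827 by permutation; rho = 0.692, adjusted p = 0.14). The r with SLC2A1 was -0.558 without high 3 and low 6, and that with LDHB was 0.575 without high 3 and high 2. Those sows lay farthest from the median of SLC2A1 or of LDHB, and were not chosen by INHA. INHA itself ran from 4.15 to 11.43 in high and from 6.80 to 11.16 in low prolificacy sows. INHBA, also on the list of granulosa (follicle cell) markers, went the other way with SLC2A1, at r = 0.94. Whether SLC2A1 follows the follicle content of the ovary was not tested. ACTA2, a smooth muscle actin, gave -0.734 with SLC2A1 (adjusted p = 0.0604 by permutation; rho = -0.643, adjusted p = 0.168), and -0.671 without high 3 and low 6. Albumin, ALB, best known as a liver product, which reached 12.61 in low 1 and 12.40 in low 4, had its largest r with LDHA, at 0.546 (adjusted p = 0.192 by permutation; rho = 0.336, adjusted p = 0.573), and 0.392 without high 2 and low 1. ALB lay under 4 in 8 of 12 sows and counts as not measured here, so both this r and a fit with ALB rest on background values in most sows. Of 6 hepatocyte markers on the array 2 were measured, ALB not among them, and the list's mean ran from 4.19 to 6.19 in high and from 4.23 to 9.75 in low prolificacy sows. Fitted beside ALB, the LDHA difference was -0.201 and the PFKP difference 0.424, and 0 members passed.

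**Figure D4:**
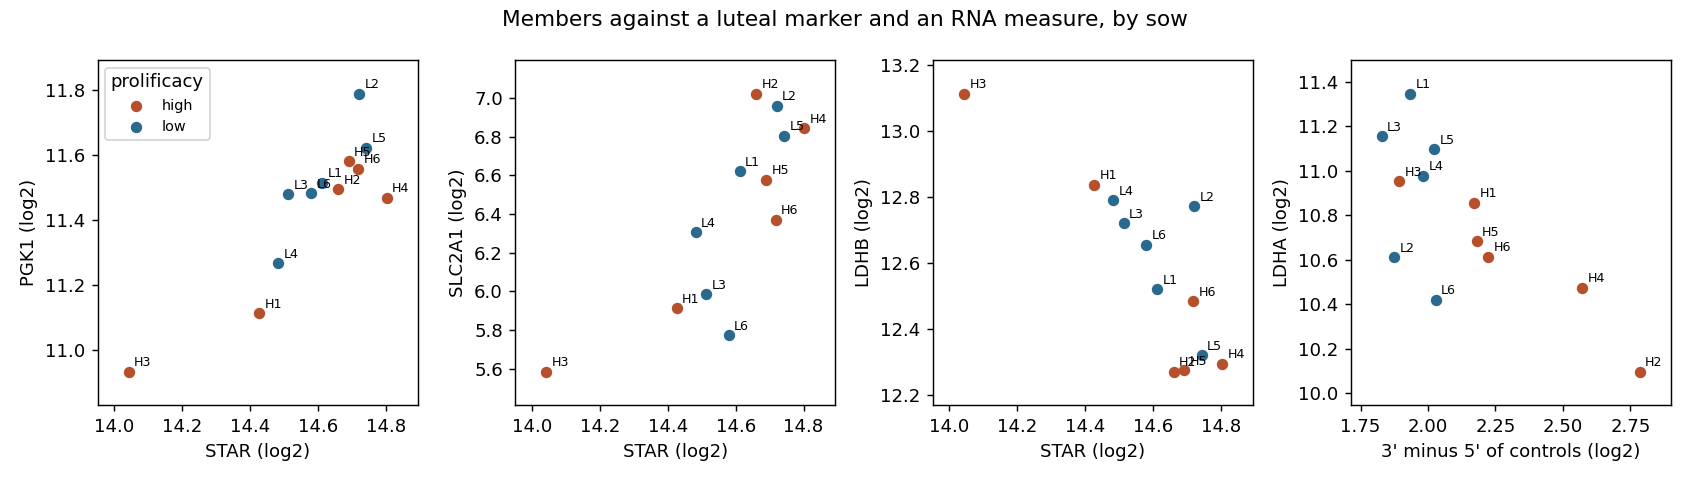
PGK1, SLC2A1 and LDHB against STAR, and LDHA against the 3' minus 5' difference of the control transcripts (all log2), each point 1 of 12 sows labelled H (high) or L (low) with its number. H3 stands alone at a STAR of 14.04, and H2 and H4 stand alone on the axis of the 3' difference, above 2.5.

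The 3 members that varied most over the 12 sows were HK1, SLC2A1 and LDHA, and for each the 5 most similar probe sets of other genes were taken from 6656 with 1 symbol by the highest r, as a description without a test. HK1 was most like TCN2, a carrier of vitamin B12, at r = 0.935 (rho = 0.937, 0.902 without high 3 and low 2). C2H19orf70, GPM6B, MMAB and EIF4EBP2 followed with r from 0.865 to 0.901. MMAB, an enzyme of vitamin B12 metabolism, ran from 3.87 in high 3 to 6.77 in low 2, the sows that were also lowest and highest for HK1. SLC2A1 was most like INHBA, the subunit of activin A, at r = 0.94 (rho = 0.909, 0.893 without high 3 and low 6). TIMP1, an inhibitor of matrix proteases, followed at 0.925, and TMX3, CAPNS1 and TMEM59 lay between 0.907 and 0.92. LDHA was most like the splicing factor PLRG1, at r = 0.952 (rho = 0.923, 0.92 without high 2 and low 1). Next was ACP5, the tartrate-resistant acid phosphatase of osteoclasts and some macrophages, at 0.948, and then the secreted phosphoprotein SPP1 at 0.882, ANAPC13 at 0.881 and SCNM1 at 0.874. The mean of ACP5 was 5.43 ± 0.99 for the high group, against 6.65 ± 1.21 for the low group, and its r with LDHA was 0.97 among high sows and 0.907 among low sows.

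Around the members, 7 lists of glycolysis and neighbouring pathways held 51 genes that could be tested, each by its brightest probe set. In limma 0 of them passed the adjusted threshold in either direction, beside 0% of all probe sets, and 3 had an unadjusted p under 0.05, beside 5.64%. Of the 51, 30 were lower and 21 higher in high prolificacy sows, with a median difference of -0.027. Of the 26 of them named here, 20 had a difference that moved by over 1.5 times or turned when 1 sow was left out, and 6 did not (HK3, SLC16A3, RPIA, PGM1, P4HA2 and KDM3A). KDM3A ran only from 4.41 to 4.59 in high and from 4.30 to 4.46 in low prolificacy sows, close to the level of 4 taken as measured. Hexose and lactate transporters had 2 of 4 tested genes lower and held the widest gap of all lists. SLC16A3, the lactate exporter MCT4, ran from 2.31 through 3.64 to 4.40 in high prolificacy sows, against 3.86 through 4.86 to 5.53 in low prolificacy sows. Of these, 3 high sows and 1 low sow lay under 4, the level taken as measured, and the groups overlapped. The SLC16A3 difference was -1.29 (95% interval -2.19 to -0.38, exact permutation p = 0.0195, limma adjusted p = 0.752), from -1.48 to -1.06 with 1 sow left out and -0.664 fitted beside the 3' difference. The glucose transporters SLC2A8 and SLC2A3 differed by -0.23 and 0.12, and BSG, which carries lactate transporters to the membrane, by 0.018.

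Other glycolysis enzymes had 6 of 8 tested genes lower. HK3, a hexokinase of white blood cells, had a mean of 5.61 ± 0.21 for the high group, against 5.90 ± 0.18 for the low group, or -0.29 (limma adjusted p = 0.839). The liver isoform of phosphofructokinase, PFKL, differed by -0.60, and by -0.202 without high 2, which stood at 3.89. GPI, the phosphoglucose isomerase, differed by -0.17 and PKM, the pyruvate kinase, by 0.15. Of the 8 glycolysis regulators tested 4 were lower, with PFKFB4, which sets the activator of phosphofructokinase, at -0.38, the AMP-activated kinase subunit PRKAA2 at -0.39, AKT2 at 0.049 and the oxygen-sensing factor HIF1A at 0.091 (a second HIF1A probe set gave -0.335). Without high 2 PFKFB4 was -0.172, and PRKAA2 was -0.236 without low 2 and -0.609 without high 4. Pyruvate oxidation had 8 of 11 genes lower. The pyruvate dehydrogenase subunits PDHB and DLAT differed by -0.13 and -0.14, the mitochondrial pyruvate carrier MPC2 by -0.12, and PDK4, the kinase that switches the dehydrogenase off, by 0.40 (limma adjusted p from 0.929 to 0.945). PDK4 was 0.163 without low 1 and 0.636 without high 4.

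The pentose phosphate and glycogen branches had 5 of 9 genes lower. RPIA, the ribose phosphate isomerase, had a mean of 8.86 ± 0.22 for the high group, against 8.60 ± 0.15 for the low group, or 0.26 (limma adjusted p = 0.860). PGM1 and PGM2, phosphoglucomutases, differed by -0.24 and 0.20, and transketolase, TKT, by -0.20. Hypoxia-responsive genes had 4 of 9 lower, with the collagen hydroxylase P4HA2 at -0.25, the disulfide oxidase ERO1A at -0.27, the histone demethylase KDM3A at 0.079 and the vasodilator peptide ADM at 0.61, whose SDs were 1.45 in high and 0.79 in low prolificacy sows. ADM was 0.154 without high 2 and 0.95 without high 6, and ERO1A was -0.145 without low 5. Of the gluconeogenic bisphosphatases FBP2 differed by 0.14 and FBP1 by -0.18. No limma adjusted p in these 3 lists was under 0.860.

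**Figure D5:**
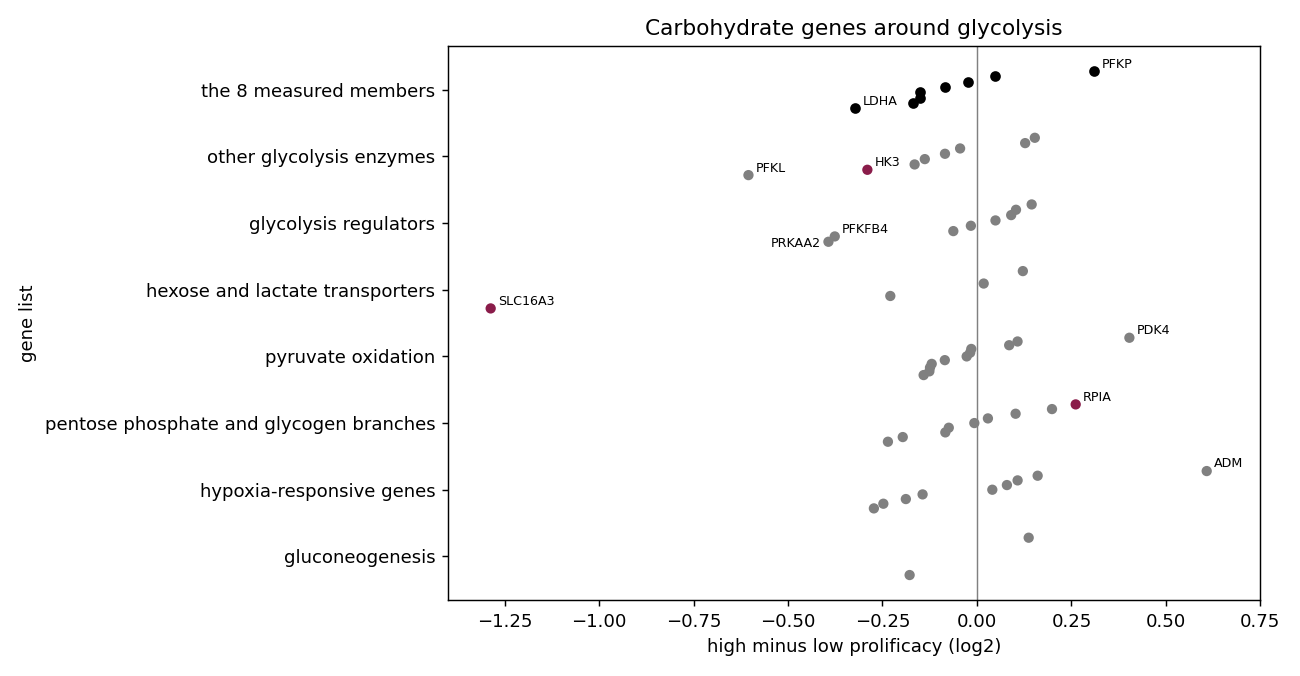
High minus low prolificacy difference (log2) of the 8 measured members (black) and of 51 genes in 7 neighbouring lists, each point 1 gene by its brightest tested probe set, coloured where the unadjusted limma p is under 0.05 and named where the difference is wide. Most points lie near 0, and SLC16A3 stands alone at -1.29.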

How the data were processed

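Ovary RNA of 12 sows was read on Affymetrix arrays, 1 per sow. The deposited log2 values were made by the authors with GCOS and GCRMA, per the submitters' processing notes (with versions not given in the sources used here), and the log2 scale was read from their range of 0.97 to 15.34. Symbols came from the array annotation: 10099 probe sets had 1, 198 several and 13826 none. The 124 control probe sets were not tested. In a block of 62 of them the names were displaced by 21 places against the values and were moved back, which lowered the mean gap to like-named spikes from 5.17 to 0.451. That shift was chosen as the one with the smallest such gap, so the fall in the gap is no separate check of it.

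Probe sets above 4 in at least 6 sows were tested between the groups in limma (3.58.1, under R 4.3.3; lmFit, then eBayes), two-sided and without covariates, with Benjamini-Hochberg adjustment at 0.05. Correlations used 100000 permutations, adjusted over 28 and 48 relations. The test was tried on simulated data first. The number of sows limits the precision. Kinship among the sows was not examined.

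The members, lists and tests were chosen with earlier results of these data known. Genes named are the members, up to 4 of each list by smallest p, and the 5 most like the 3 members of largest SD. ACP5 and MMAB were singled out for more detail, as was GAPDH among the controls, after their values were seen. Alternatives were other filters, normalizations, moderation and weights, covariates, a replicate block, leaving out each sow, and exact permutation. Leaving high 3 out of the correlations, removing group means from those with markers and removing the 3' difference were chosen after seeing the data.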

Additional observations from a re-analysis of the deposited data

Results flagged for a closer look

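In 68 groups of 6 sows (8 members and 26 genes of the lists) a sow was looked for whose gap to its nearest neighbour took up an unusual share of the group's range. Of the members' 16 groups 0 had one. Among the 52 groups of the listed genes there were 5, where chance gives about 5% of groups, or 2.6. PFKL stood at 3.89 in high 2 (group median 6.08), GPI at 11.75 in high 4 (median 11.28), PKM at 6.46 in low 5 (median 6.87), AKT2 at 6.99 in low 2 (median 7.15) and ERO1A at 6.52 in low 5 (median 5.80). Without the sow named, the difference was -0.202 for PFKL, -0.246 for GPI, 0.080 for PKM, 0.021 for AKT2 and -0.145 for ERO1A.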

How the results depend on the processing

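No alternative brought a member past the threshold, and the smallest adjusted p of a member under any of 23 alternatives was 0.366. The count of 0 members at an unadjusted p under 0.05 belongs to the main fit and did not hold throughout. Unadjusted limma p for PFKP was 0.043 with quantile normalization, 0.038 with median centring, 0.0022 beside the 3' difference and 0.065 with the replicate block. For LDHA it was 0.036 with the replicate block and 0.103 with median centring. Of 184 member values 166 kept their direction and 18 turned. With the 3' difference as a covariate HK1 was -0.148, TPI1 0.012, ENO1 0.174, LDHA 0.0093 and LDHB 0.224. With INHA as a covariate HK1 was -0.013, and with array weights SLC2A1 was 0.075. With 1 sow left out SLC2A1 ran from -0.151 to 0.136 and HK1 from -0.157 to 0.268, while the other 6 members kept their sign. Of the 26 other named genes 9 turned. With the 3' difference as a covariate BSG was -0.061, PFKL 0.356, PGM2 -0.118, SLC2A3 -0.352 and SLC2A8 0.187. With array weights ADM was -0.166, FBP1 0.069 and HIF1A -0.010, with INHA as a covariate BSG was -0.0020, and with albumin as a covariate BSG was -0.081 and FBP2 -0.028. With 1 sow left out BSG ran from -0.059 to 0.106, FBP1 from -0.394 to 0.094, HIF1A from -0.036 to 0.189 and SLC2A3 from -0.018 to 0.212. The cause was not tested. Of all probe sets, 0 to 1 passed with 1 sow left out (1, not a member, without low 1) and 0 under the other alternatives. The replicate block, in which animal numbers are treated as pairs, moved 0 calls: 0 members and 0 probe sets passed. After each group's mean was taken out of every tested probe set, what remained in same-numbered sows correlated at -0.455 to 0.168. The numbers were therefore not taken as pairs. Of the relations with markers 4 passed, 2 with the group means removed and 0 without high 3. With the 3' difference removed from both values, r with STAR was 0.930 for PGK1, 0.741 for SLC2A1 and -0.819 for LDHB. By the same step ENO1 with LDHB went from 0.560 to 0.184, and LDHA with HBB from 0.553 to -0.033. These values were not tested. Each gene had 1 probe set, so averaging probe sets changed nothing for the members. Intervals of the differences show what 6 sows a group could resolve.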

Other observations

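GAPDH, the glycolytic dehydrogenase between TPI1 and PGK1, is no member but sits on the array both as a gene and as a control. In the 9 GAPDH control probe sets, read with their names moved back, the high group was lower in 9, by -0.338 to -0.080. Its widest gap was in a 5' probe set, with 10.98 ± 0.19 in high and 11.32 ± 0.22 in low prolificacy sows, and in the 3' probe set of the same design the averages were 12.996 ± 0.126 in high and 13.087 ± 0.155 in low prolificacy sows. The 3 GAPDH gene probe sets differed by -0.13, -0.085 and -0.16 (limma adjusted p from 0.925 to 0.965). All these probe sets read the same gene in the same sows, so they are not separate observations, and the control probe sets were not tested.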
